A study of Mus musculus with 6 samples.

Results

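The genes described here encode the machinery that copies DNA and the factors that start S phase. They were chosen by symbol, as a list of 43 genes, and all 43 were found among the 24421 rows of the deposited count table and passed the filter on low counts. Gene expression was measured by RNA-seq in group 2 innate lymphoid cells (ILC2), tissue lymphocytes without antigen receptors, sorted by surface markers from mouse brain. All mice were of the inbred strain C57BL/6. Aged mice were 20 to 22 months old, young mice 2 to 3 months old, and each age is represented by 3 libraries. All cells of both groups had been kept for 2 weeks in medium with fetal calf serum and the growth signals IL-33, SCF, IL-7 and IL-2, so the values describe cultured cells and not cells fresh from the brain. Whether libraries of 1 age are from different mice or cultures is not stated in the labels, so a p-value here covers the spread of these libraries alone, which may be technical.

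Before S phase, the origin recognition complex, Cdc6 and Cdt1 load the ring of MCM2-7 proteins onto DNA. Cdc45 and the GINS complex then turn that ring into the active helicase, polymerases and their sliding clamp copy the strands, and ligase seals the fragments of the lagging strand. E2F transcription factors and cyclin E drive many of these genes at the entry into S phase, and IL-2 and IL-7, both present in the medium, are growth signals for lymphocytes. In bulk RNA, fewer cycling cells and less transcript per cycling cell cannot be told apart.

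Library totals ran from 16477157 to 20804291 counts. Of 12 ILC2 marker genes, 11 passed the filter. Of these 2 were called higher and 5 lower in aged libraries (18.2% and 45.5%), beside 11.2% and 8.14% of all tested genes. Gata3, Rora, Il1rl1 and Id2 were above 100 CPM (counts of a gene relative to the TMM-scaled size of its library) in every library. Gata3 was at 166 to 214 CPM in aged and 351 to 447 CPM in young libraries, and Il1rl1 at 247 to 332 CPM in aged and 441 to 527 CPM in young libraries. Klrg1 was at 0, 0.471 and 3.87 CPM in aged and 76.5, 82.5 and 100.6 CPM in young libraries. Id2, Thy1 and Areg lay the other way. They were at 6383 to 6747, 134 to 154 and 520 to 568 CPM in aged libraries. In young libraries they were at 3159 to 4368, 50.3 to 82.6 and 421 to 452 CPM. Of 54 marker genes of other cell types, 27 had 0 counts in every library, among them Cd3e, Ncr1, Csf1r and S100a8. The other-cell markers summed to 824 to 1035 CPM in aged and 523 to 537 CPM in young libraries, most of it from Mcpt8, Batf3 and Pecam1. Of the 18 that passed the filter 5 were called higher and 2 lower in aged libraries (27.8% and 11.1%). The 7 microglia and macrophage markers summed to 105 to 154 CPM in aged and 47.4 to 57.7 CPM in young libraries. Among them Tmem119 and P2ry12 were at 36.2 to 67.5 and 10.4 to 19.8 CPM in aged libraries, against 0 to 1.91 and 0.559 to 5.48 CPM in young libraries. Adgre1 and Cx3cr1 lay the other way, at 0 and at 0 to 1.4 CPM in aged libraries, against 1.73 to 4.12 and 0.712 to 5.74 CPM in young libraries. The part of these markers in the results below was not tested.

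The replication genes as a group changed about as all tested genes did, with single members moving in both directions. In edgeR's quasi-likelihood test across 11805 genes, with an adjusted p under 0.05 as the threshold, 3 members rose and 5 fell in aged against young libraries, and 35 did not pass. The members that rose were Dut, Rpa3 and Tk1, and those that fell were Lig1, Mcm3, Rrm1, Pola2 and Mcm6. Over all tested genes 11.2% were called higher and 8.14% lower, against 6.98% and 11.6% of the members, so neither share stood far from the background. The number that fell was 1, 2, 1 and 2 without aged library 1, aged library 2, young library 1 and young library 2. It was 6 and 4 without aged library 3 and young library 3. Of all tested genes 961 were called lower with every library, and 758, 654, 399, 480, 849 and 797 in these fits, in that order. Each such fit also rests on fewer libraries, and the part of this was not tested. The median log2 change was -0.15 over the members and -0.10 over all tested genes. In 16 members, 8 in each direction, the 3 aged and 3 young libraries did not overlap. That is 37.2% of the members, beside 38.2% of all tested genes. Without young library 2 the member median was 0.01.

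**Figure D1:**
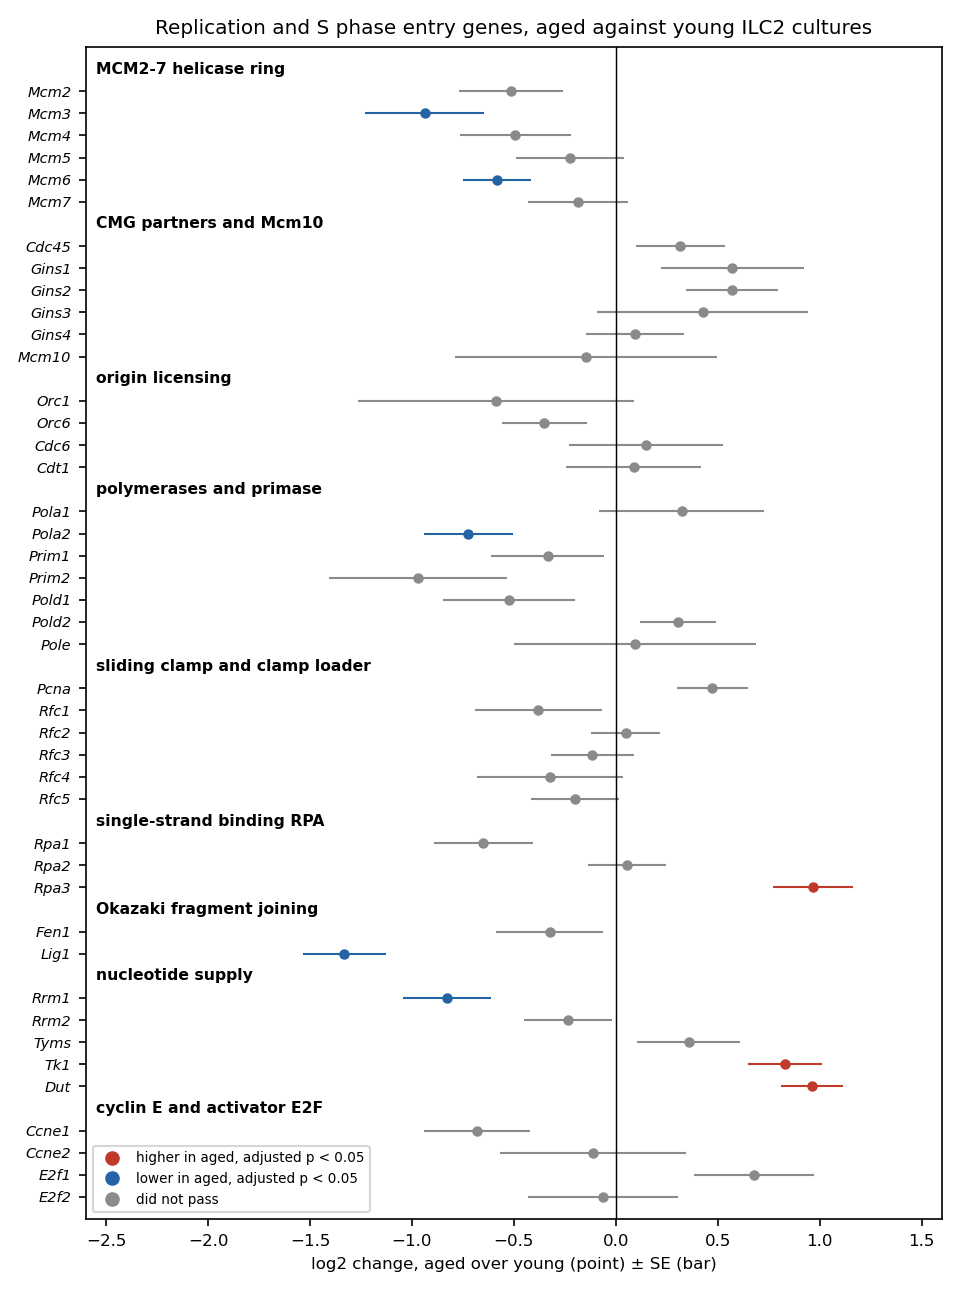
Fitted log2 change, aged over young (x axis), with its standard error for each of the 43 genes, grouped by role (y axis). Red and blue points passed an adjusted p of 0.05 in edgeR. Among all tested genes, not drawn here, 54.6% had a change below 0. All 6 MCM2-7 genes lie left of 0 (Mcm5 and Mcm7 turn to the right after a length and GC correction and without young library 2), Cdc45 and the 4 GINS genes lie right of it (Cdc45 and Gins4 turn to the left with library totals, Gins4 also after that correction and without aged library 2 or 3), and the called genes run from -1.33 for Lig1 to 0.96 for Rpa3 and Dut.

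Promoter sequence was examined because E2F binding is known to govern many genes of this kind. RefSeq (GRCm38.p6) gave a window from 250 bases before to 50 after the start for 35 of the 43 genes. The E2F-type words TTTCCCGC, TTTCGCGC, TTTGCCGC and TTTGGCGC were searched on both strands, and words on opposite strands could overlap. At least 1 word stood at a listed start of 13 of these 35 genes (37.1%), against 4.7% of 9013 tested genes with a window. A CCAAT box (CCAAT, both strands) was in 22 of the 35 (62.9%), against 43% of tested genes. An E2F-type word was found for 3 of the 5 genes that fell (Mcm3, Mcm6 and Lig1) and for none of the 3 that rose. The word of Lig1 stood at a later listed start and not at the first. At first starts alone a word was found for 2 of the 5 genes that fell (40%), beside 12 of the 35 members (34.3%). Of the genes with a window, 4 are shown as the 250 bases before the first listed start, in gene direction, with E2F-type words in capitals. None of these stretches overlaps an annotated exon. Mcm6, which fell, lies at chr1:128359706-128359955 (minus strand), and Mcm5, which did not pass, at chr8:75109259-75109508 (plus strand). Pola1, which did not pass, lies at chrX:93632156-93632405 (minus strand). Rrm1, at chr7:102441445-102441694 (plus strand), is shown because it fell without such a word in its window.
Mcm6: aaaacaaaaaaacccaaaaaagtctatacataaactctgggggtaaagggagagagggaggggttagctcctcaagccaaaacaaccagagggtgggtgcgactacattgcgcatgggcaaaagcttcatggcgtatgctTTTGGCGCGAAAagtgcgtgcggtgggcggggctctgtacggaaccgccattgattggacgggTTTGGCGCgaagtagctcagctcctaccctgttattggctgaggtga
Mcm5: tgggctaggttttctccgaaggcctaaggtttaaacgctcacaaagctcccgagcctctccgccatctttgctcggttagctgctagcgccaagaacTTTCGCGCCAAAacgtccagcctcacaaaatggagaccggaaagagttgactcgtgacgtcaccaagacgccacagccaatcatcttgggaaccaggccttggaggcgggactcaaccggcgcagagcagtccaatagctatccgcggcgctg
Pola1: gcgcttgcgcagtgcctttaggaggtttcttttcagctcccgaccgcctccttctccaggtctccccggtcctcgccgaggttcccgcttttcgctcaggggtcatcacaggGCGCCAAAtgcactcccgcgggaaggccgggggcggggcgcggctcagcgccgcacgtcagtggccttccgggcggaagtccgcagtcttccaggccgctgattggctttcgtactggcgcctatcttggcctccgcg
Rrm1: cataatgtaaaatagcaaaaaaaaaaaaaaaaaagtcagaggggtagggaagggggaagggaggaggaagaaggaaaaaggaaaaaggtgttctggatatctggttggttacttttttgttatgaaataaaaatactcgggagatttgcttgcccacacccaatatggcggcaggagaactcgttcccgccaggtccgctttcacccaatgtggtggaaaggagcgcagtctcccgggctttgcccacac
The first capital run of Mcm6 and that of Mcm5 each hold overlapping words on opposite strands. The same kind of site stood before a gene that fell and before genes that did not pass, and a match describes these letters only. Only exact words were searched, so a window without a match, such as that of Rrm1, is not shown to lack an E2F site.

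The MCM2-7 genes, which encode the subunits of the helicase ring, fell or did not pass in aged libraries. Of 6 genes 2 fell (33.3%, beside 8.14% of all tested genes) and none rose. The fitted log2 changes ran from -0.94 to -0.19 with a median of -0.50. Over all tested genes 54.6% of the changes were below 0. The ring transcripts run from 2910 to 3589 bases. Of tested genes of 2 kb or more 35% had a change above 0, with a median of -0.31. All 6 were negative under each scaling tried, but Mcm5 and Mcm7 were at 0.22 and 0.15 once the trend on transcript length and GC was removed, and at 0.04 and 0.12 without young library 2. Removing that trend left Mcm2, Mcm3, Mcm4 and Mcm6 at -0.19, -0.57, -0.05 and -0.16. Mcm3 and Mcm6 then lost their calls (adjusted p = 0.195 and 0.546, edgeR). Mcm3 (chromosome 1, 20802968 to 20820312, GRCm38) had 43.3, 27.9 and 61.9 CPM in aged libraries, against 86.4, 101.5 and 67.2 CPM in young libraries. The groups did not overlap, but the gap between the highest aged and the lowest young library was small. Its log2 change was -0.94 ± 0.29 (SE; adjusted p = 0.0454, edgeR). Mcm6 (chromosome 1, 128331590 to 128359664) had 114.6, 117 and 136 CPM in aged libraries, against 209.7, 175.7 and 166 CPM in young libraries. Every aged library lay below every young library, and the log2 change was -0.58 ± 0.17 (SE; adjusted p = 0.0300, edgeR). Without aged library 1, aged library 2, young library 1 or young library 2 the adjusted p of Mcm3 was 0.107, 0.133, 0.135 or 0.161, and that of Mcm6 was 0.097, 0.102, 0.184 or 0.0612. Mcm4 had 21.7 to 24.9 CPM in aged and 30.9 to 34.9 CPM in young libraries, without overlap, and did not pass (log2 change -0.49; adjusted p = 0.25). Mcm2, Mcm5 and Mcm7 overlapped between the groups, with log2 changes of -0.52, -0.22 and -0.19. A processed pseudogene matches 72.8% of the Mcm7 transcript at 95% identity or more, which leaves its count uncertain.

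Per kilobase of transcript, the ring genes were unequal in both groups. Mcm6 was at 42.2 ± 4.0 CPM per kb in aged and 63.2 ± 7.89 in young libraries (SD, n = 3 each), the highest of the 6. Mcm4 was at 6.44 ± 0.463 CPM per kb in aged and 9.06 ± 0.590 in young libraries, the lowest of the 6. The other 4 ran from 14.6 to 28.9 CPM per kb in aged libraries. In young libraries they ran from 28.1 to 33.7 CPM per kb, within the spread of their libraries.

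The partners that activate the ring stood on the other side of 0, as 45.4% of all tested genes did, though none passed the test. Cdc45 and the 4 GINS genes had positive log2 changes, from 0.09 for Gins4 to 0.57 for Gins1 and Gins2, while with library totals Cdc45 and Gins4 were at -0.10 and -0.32 and after the length and GC correction Gins4 was at -0.15. Gins4 was also at -0.04 without aged library 2 and without aged library 3. Mcm10, a factor that helps to activate the helicase, had -0.15, with 0.59 after that correction and 0.17, 0.13 and 0.32 without aged library 2, aged library 3 and young library 2. Gins2 had 66.1, 89.9 and 80.8 CPM in aged libraries, against 44.6, 49.3 and 65.8 CPM in young libraries. The groups did not overlap, by a narrow margin, and the log2 change was 0.57 ± 0.23 (SE; adjusted p = 0.107, edgeR). Without young library 3 it passed, with a log2 change of 0.78 and an adjusted p of 0.0419. Exons of Gse1 on the opposite strand overlap 67.3% of the Gins2 exons, so its count is uncertain if reads were counted without strand. Gins1 had 36.2, 37.7 and 61.2 CPM in aged libraries, against 21.7, 23.2 and 46.1 CPM in young libraries, and library 3 of each group was the high one. Its log2 change of 0.57 ± 0.35 (SE) had an adjusted p of 0.308. Cdc45 had 54.6 to 67.2 CPM in aged and 41.5 to 51.8 CPM in young libraries, without overlap (adjusted p = 0.364). Gins3, Gins4 and Mcm10 overlapped between the groups. Mcm10 had 17.8, 4.71 and 5.46 CPM in aged libraries, with library 1 far above the others, against 9.13, 15.8 and 6.05 CPM in young libraries. A ratio within a library does not depend on the scaling. The count of Cdc45 relative to Mcm6, a pair chosen after their values were seen, was 0.587, 0.487 and 0.401 in aged and 0.247, 0.287 and 0.250 in young libraries. Each gene alone already separated the groups, in opposite directions, so the ratio had to separate them too.

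Of the licensing factors, 4 genes, none passed. Orc6, a subunit of the origin recognition complex, had 61.5, 68.0 and 76.0 CPM in aged libraries, against 88.1, 70.1 and 104.2 CPM in young libraries. The groups overlapped, and the log2 change was -0.35 ± 0.21 (SE; adjusted p = 0.288, edgeR). Orc1, the subunit whose level cycles most, had 1.79, 11.0 and 21.9 CPM in aged libraries, against 19.5, 17.8 and 14.9 CPM in young libraries. The aged libraries spread from below to above all young libraries, and the log2 change was -0.59 ± 0.68 (SE; adjusted p = 0.618). Cdc6 had 22.2 to 46.0 CPM in aged and 17.1 to 37.4 CPM in young libraries, and Cdt1 had 23.6 to 37.8 and 18.8 to 33.2 CPM. Their log2 changes were 0.15 and 0.09. A processed pseudogene matches 59.5% of the Cdc6 transcript.

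Among the polymerase and primase genes, 1 of 7 fell (14.3%, beside 8.14% of all tested genes) and none rose. Pola2 (chromosome 19, 5940542 to 5964202), the regulatory subunit of the polymerase that starts each new strand, had 35.6, 39.5 and 37.1 CPM in aged libraries, against 67.6, 64.5 and 53.1 CPM in young libraries. The groups stood well apart, and the aged libraries lay close together. The log2 change was -0.72 ± 0.22 (SE; adjusted p = 0.0395, edgeR). The call was lost without aged library 1, 2 or 3 (adjusted p = 0.101, 0.0846 or 0.0771) and without young library 1 or 2 (0.179 or 0.117). Pola1, which encodes the catalytic subunit of the same enzyme, had 13.1 to 22.5 CPM in aged and 10.9 to 15.3 CPM in young libraries, and its log2 change of 0.32 ± 0.41 (SE) did not pass. Prim2, the large primase subunit, had 8.15, 17.5 and 13.4 CPM in aged libraries, against 14.5, 34.6 and 27.4 CPM in young libraries. Young library 1 lay inside the aged range, and the log2 change of -0.97 ± 0.44 (SE) did not pass (adjusted p = 0.153). Prim1 and Pold1, of primase and of the lagging strand polymerase, had log2 changes of -0.33 and -0.52 with overlapping groups. Pold2 had 93.1 to 106 CPM in aged and 68.2 to 89.7 CPM in young libraries, without overlap (adjusted p = 0.301). Pole, the leading strand polymerase, was low in both groups, at 7.09 to 12.95 CPM in aged and 4.02 to 13.5 CPM in young libraries.

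The sliding clamp and its loader did not pass. Pcna, the clamp that tethers polymerases to DNA, had 162.5, 187 and 232 CPM in aged libraries, against 131, 134 and 154 CPM in young libraries. All aged libraries were above all young libraries, and the log2 change was 0.47 ± 0.17 (SE; adjusted p = 0.0848, edgeR). It passed with DESeq2 alone among the alternatives (0.50; adjusted p = 0.0362). A processed pseudogene matches 51.4% of its transcript. The 5 clamp loader genes overlapped between the groups, with log2 changes from -0.38 for Rfc1 to 0.05 for Rfc2. Rfc1, the large subunit, had 34.4, 17.6 and 28.4 CPM in aged libraries, against 35.8, 30.2 and 38.7 CPM in young libraries (log2 change -0.38 ± 0.31, SE; adjusted p = 0.459). Rfc4 had 26.9, 36.8 and 81.5 CPM in aged libraries, against 62.8, 53.7 and 65.4 CPM in young libraries, and without aged library 3 it passed as lower (log2 change -0.93; adjusted p = 0.0412). Rfc3 and Rfc5 had log2 changes of -0.11 and -0.20.

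RPA, the trimer that coats single-stranded DNA, showed different values for its 3 subunits. Rpa3 (chromosome 6, 8255936 to 8259173), the smallest, had 173, 191 and 201 CPM in aged libraries, against 100.8, 72.6 and 116.6 CPM in young libraries. Every aged library was well above every young library, and the log2 change was 0.96 ± 0.20 (SE; adjusted p = 0.00580, edgeR). Rpa1, the largest, had 35.2, 44.4 and 60.6 CPM in aged libraries, against 81.9, 73.5 and 64.8 CPM in young libraries. Its groups did not overlap, but its log2 change of -0.65 ± 0.24 (SE) did not pass (adjusted p = 0.0897). Without aged library 3 it did (-0.88; adjusted p = 0.0351). Rpa2, the middle subunit, had 69.3 to 89.3 CPM in aged and 71.3 to 82.6 CPM in young libraries (log2 change 0.05). The count of Rpa3 relative to Rpa1, chosen after their values were seen, was 4.92, 4.30 and 3.32 in aged and 1.23, 0.988 and 1.80 in young libraries. This separation was likewise fixed by the levels of the genes alone. The subunits run in order of transcript length, at 5077 bases for Rpa1, 1813 for Rpa2 and 670 for Rpa3.

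Among the 43 genes, Lig1 had the largest log2 change on the TMM scale with all libraries, while after the length and GC correction that of Dut was larger. Lig1 (chromosome 7, 13277283 to 13311433) encodes DNA ligase I, which seals the nicks between Okazaki fragments. It had 34.1, 37.4 and 39.5 CPM in aged libraries, against 107, 83.9 and 88.0 CPM in young libraries. The highest aged library lay below 40 CPM and the lowest young library above 80 CPM. The log2 change was -1.33 ± 0.21 (SE; adjusted p = 0.00112, edgeR), a level 2.52-fold lower, and it passed under all 15 alternatives, with log2 changes of -1.75 to -1.01. Fen1, the flap nuclease that acts just before the ligase, had 51.3, 73.5 and 99.7 CPM in aged libraries, against 110, 99.9 and 70.9 CPM in young libraries. The groups overlapped, and the log2 change was -0.32 ± 0.26 (SE; adjusted p = 0.456). The predicted gene Gm10143, transcribed in the other direction, covers 78.8% of the Fen1 exon length.

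Nucleotide supply held 2 genes that rose and 1 that fell of 5 (40% and 20%), beside 11.2% and 8.14% of all tested genes. Dut (chromosome 2, 125247190 to 125258608), the dUTPase that keeps uracil out of DNA, had 477, 507 and 480.3 CPM in aged libraries, against 243, 211 and 298 CPM in young libraries. The groups stood far apart, and the log2 change of 0.96 ± 0.15 (SE; adjusted p = 0.00125, edgeR) is a level 1.95-fold higher. It passed under all 15 alternatives, with log2 changes of 0.55 to 1.14. Tk1 (chromosome 11, 117815526 to 117826092), the thymidine kinase of the salvage route, had 157, 179 and 188 CPM in aged libraries, against 89.9, 85.9 and 119 CPM in young libraries. The groups did not overlap, and the log2 change was 0.83 ± 0.18 (SE; adjusted p = 0.00867). Without young library 1 the adjusted p was 0.0548. Rrm1 (chromosome 7, 102441695 to 102469771), the large subunit of ribonucleotide reductase, had 44.6, 64.8 and 70.6 CPM in aged libraries, against 111, 95.2 and 114 CPM in young libraries. All aged libraries were below all young libraries, with a log2 change of -0.83 ± 0.22 (SE; adjusted p = 0.0206). The call was lost without aged library 1 (0.0654), young library 1 (0.0903) or young library 3 (0.0594). Rrm2, the small subunit of the same enzyme, had 143 to 188 CPM in aged and 137 to 245 CPM in young libraries and did not pass (log2 change -0.23 ± 0.21, SE). Tyms, thymidylate synthase of the de novo route, had 81.9, 121 and 163 CPM in aged libraries, against 100.4, 75.8 and 110 CPM in young libraries (log2 change 0.36; adjusted p = 0.387). The count of Dut relative to Rrm1, also chosen after their values were seen, was 10.7, 7.81 and 6.8 in aged and 2.19, 2.21 and 2.61 in young libraries.

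**Figure D2:**
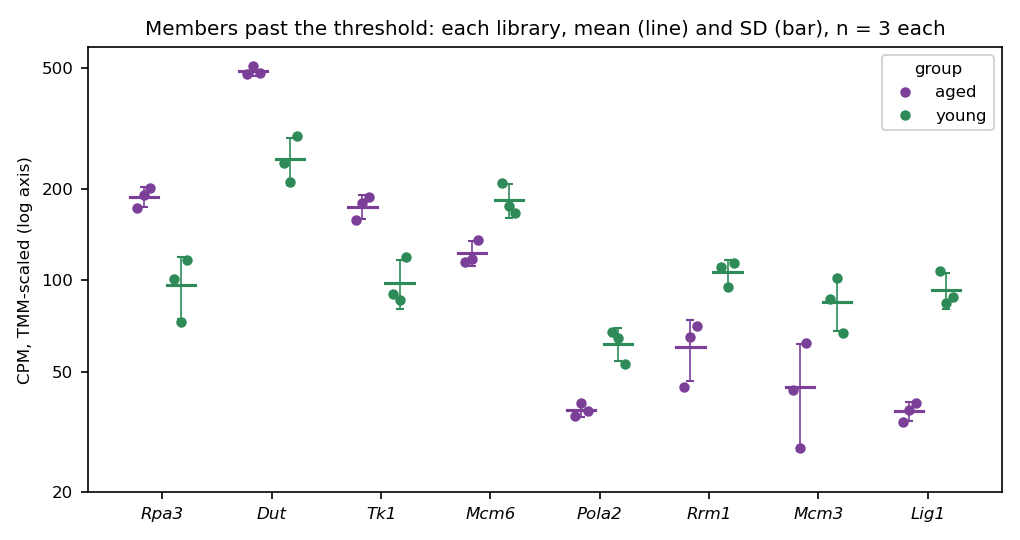
TMM-scaled CPM on a log axis (y) of the 8 genes that passed, in each aged (left, purple) and young (right, green) library, with group means as lines and SD as bars. In each gene the 3 aged libraries lie on 1 side of the 3 young libraries, with the narrowest gap in Mcm3 (61.9 against 67.2 CPM) and the highest level in Dut (477 to 507 against 211 to 298 CPM).

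The cyclin E and E2F genes did not pass. Ccne1, a cyclin that activates CDK2 at the entry into S phase, had 25.9, 29.8 and 36.1 CPM in aged libraries, against 40, 49.99 and 57.03 CPM in young libraries. The groups did not overlap, and the log2 change was -0.68 ± 0.26 (SE; adjusted p = 0.0946, edgeR). E2f1, an activator of replication genes, had 59.5, 48.8 and 68.2 CPM in aged libraries, against 45.7, 42.3 and 22.3 CPM in young libraries. Its groups did not overlap either, in the opposite direction, with a log2 change of 0.68 ± 0.30 (SE; adjusted p = 0.141). Ccne2 had 9.74, 30.6 and 12.3 CPM in aged libraries, with library 2 apart from the others, against 20.5, 20.0 and 16.3 CPM in young libraries. E2f2 had 14.0 to 23.8 CPM in aged and 15.7 to 19.9 CPM in young libraries. The log2 changes of these last genes were -0.11 and -0.06. Counts are also uncertain for Ccne2, Rfc2, Rfc4, Orc1 and Rfc5, which share 17.4%, 15.1%, 12.7%, 10.8% and 10.7% of their exon length with a gene on the opposite strand. Pseudogene copies match 36.5%, 27.9% and 11.5% of the transcripts of Rfc5, Rrm2 and Tk1.

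Summed over all 43 genes, the level was nearly equal between the groups, at 2928, 3144 and 3581 CPM in aged and 3113, 3105 and 3098 CPM in young libraries. The young libraries lay close together (SD of 7.42 CPM) and the aged libraries on both sides of them. Within the aged group library 3 was highest for 26 and library 1 for 7 of the 43 genes, while library 1 was lowest for 26. The roles differed in their sums. On the TMM scale, nucleotide supply summed to 912, 1014 and 1090 CPM in aged and 728, 713 and 778 CPM in young libraries. The ligase and flap nuclease pair summed to 85.4, 111 and 139 CPM in aged and 218, 184 and 159 CPM in young libraries. The polymerase and primase genes summed to 261, 248 and 287 CPM in aged and 295, 316 and 316 CPM in young libraries, and the licensing genes to 135, 139 and 148 CPM in aged and 169, 158 and 155 CPM in young libraries. In these roles the groups did not overlap. The ring genes summed to 402, 384 and 505 CPM in aged libraries. In young libraries they summed to 615, 682 and 494 CPM, so that aged library 3 overlapped young library 3. Sums weigh abundant genes most, and Dut alone gave 477 to 507 CPM of the aged sums. Scaled by library totals alone, the sum over all members was 2787 ± 333 CPM in aged and 3590 ± 97.9 CPM in young libraries (SD, n = 3 each), that of nucleotide supply 871 ± 86.3 and 854 ± 17.2 CPM, and that of RPA 274 ± 34.5 and 287 ± 14.5 CPM. Under that scaling the median log2 change of all tested genes moved from -0.10 to -0.52 and that of the members from -0.15 to -0.57, and each direction given for a gene holds against the TMM scale. With library totals Rpa3 (0.55; adjusted p = 0.0534, edgeR) and Tk1 (0.42; adjusted p = 0.103) lost their calls, while Mcm2, Mcm4, Orc6, Prim2, Rpa1 and Ccne1 passed as lower (-0.93, -0.91, -0.76, -1.40, -1.07 and -1.09).

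**Figure D3:**
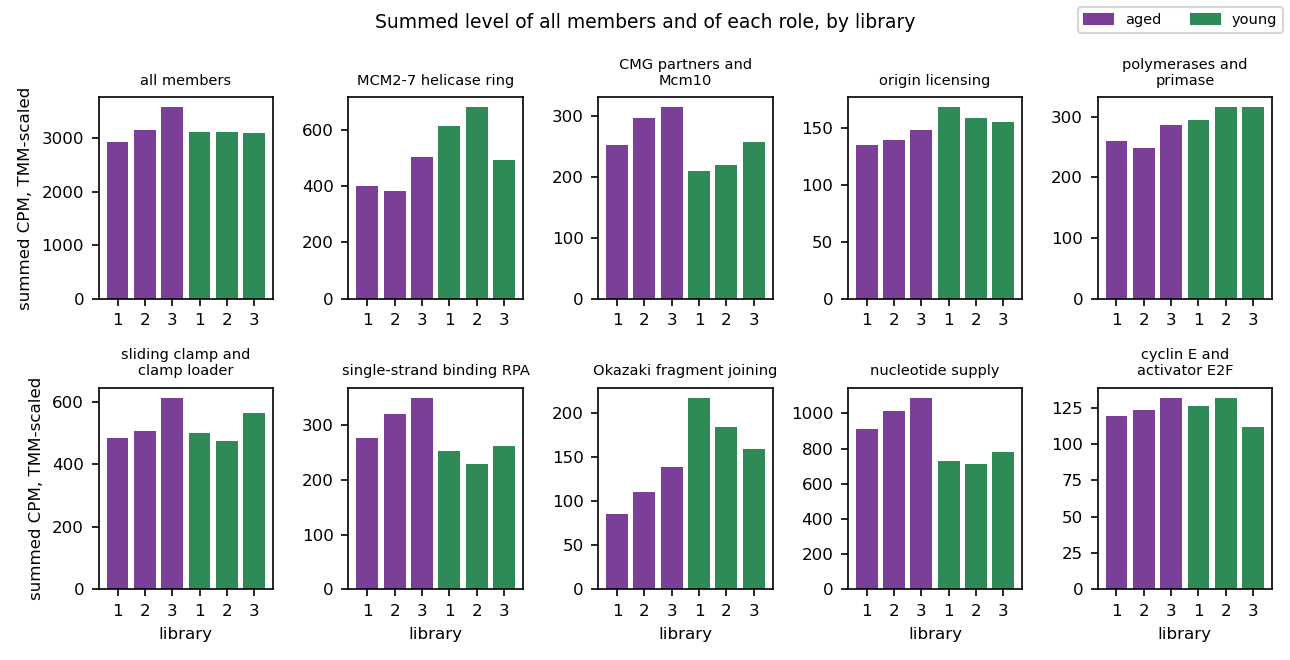
Summed TMM-scaled CPM (y axis) of all 43 genes and of each role in aged libraries 1 to 3 (purple) and young libraries 1 to 3 (green), 1 bar for each library. The sum over all genes is nearly flat, nucleotide supply and RPA are higher in every aged library on this scale (by library totals RPA is at a mean of 274 CPM in aged and 287 CPM in young libraries), and the licensing genes, the polymerases and primase, and the pair that joins Okazaki fragments are lower in every aged library.

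The calls ran with transcript length. The 3 members that rose have principal transcripts of 670 to 1950 bases, and the 5 that fell have transcripts of 2421 to 3997 bases. Of 13 members under 2 kb, 3 rose and none fell, with a median log2 change of 0.09. Of 30 members of 2 kb or more, none rose and 5 fell, with a median of -0.21. The same held across the table, where 901 of 3609 tested genes under 2 kb were called higher and 148 lower, with a median of 0.36. Of 8096 longer genes, 415 were called higher and 809 lower, with a median of -0.31. Spearman's correlation of the log2 change with length was -0.273 over the 43 members and -0.362 over 11705 genes, as a description across genes of the same libraries. After removal of the trend on length and GC content, Lig1 (-1.01) and Dut (1.08) kept their calls. The other 6 calls were lost, with Rpa3 at 0.16 and Mcm6 at -0.16. Rpa1 was then at 0.05, so the contrast between the RPA subunits was smaller too. Under that correction Gins2, Rfc2, Tyms and E2f1 passed as higher (0.96, 0.70, 0.79 and 0.88) and Orc6 as lower (-0.67). What part RNA quality has in this was not tested.

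**Figure D4:**
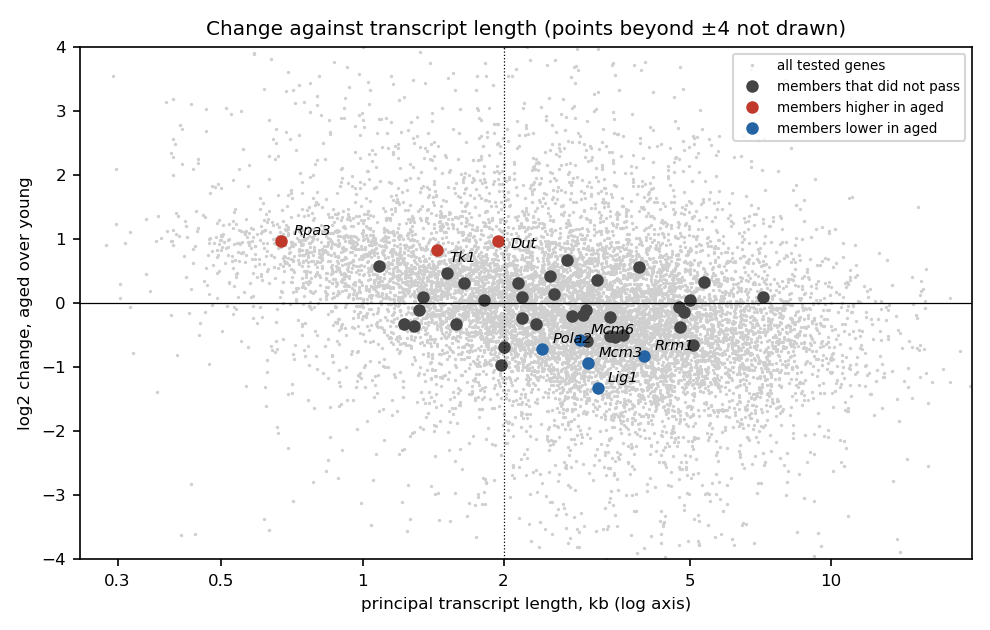
Log2 change, aged over young (y axis), against principal transcript length in kb (x axis, log scale) for all tested genes (grey) and for the members that rose (red), fell (blue) or did not pass (dark grey). The red genes lie left of the dotted line at 2 kb and the blue genes right of it. The grey cloud drifts downward with length, while Lig1 and Dut kept their calls after the trend on length and GC was removed.

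**Figure D5:**
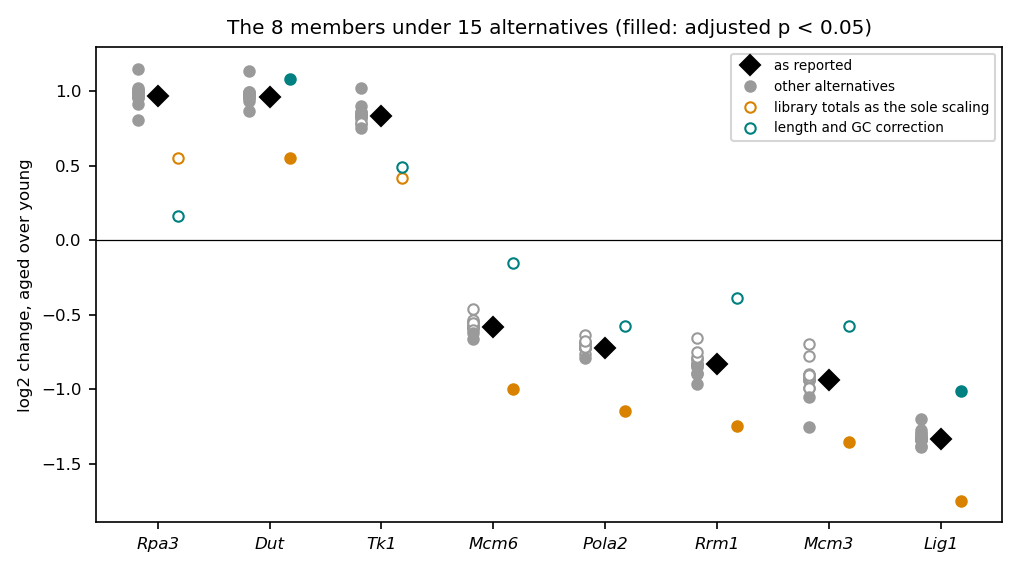
Log2 change, aged over young (y axis), of the 8 called genes (x axis) as reported (diamonds) and under 15 alternatives (circles, filled where the adjusted p was under 0.05). Lig1 and Dut stay filled throughout, while Mcm3, Mcm6, Pola2, Rrm1, Tk1 and Rpa3 passed under 8, 9, 8, 11, 12 and 13 of the 15.

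Genes of the pathway outside the list also moved in both directions. Of 89, all tested, 10 rose and 10 fell (11.2% each way), beside 11.2% higher and 8.14% lower of all tested genes. Their median log2 change was -0.20, beside -0.10 over all tested genes. Among 14 further licensing and origin firing genes 1 fell, Orc2 (-0.97 ± 0.27, SE; adjusted p = 0.0284, edgeR), another subunit of the origin recognition complex. Of 19 fork and chromatin assembly genes 3 rose and 2 fell (15.8% and 10.5%). Rnaseh2c and Rnaseh2a, subunits of the nuclease that removes RNA from DNA, rose by 0.96 and 0.69 on the log2 scale. Dnmt1, which copies DNA methylation behind the fork, and Chaf1a, which lays histones on new DNA, fell by 1.24 and 1.39. Of 14 further genes of nucleotide supply and turnover 3 rose and 3 fell (21.4% each way). Dtymk, the kinase that follows Tk1 and Tyms, averaged 235 ± 15.9 CPM in aged and 139.9 ± 25.2 CPM in young libraries. Cad, the first enzyme of pyrimidine synthesis, averaged 29.7 ± 5.90 CPM in aged and 96.8 ± 12.01 CPM in young libraries (SD, n = 3 each). Nme1 and Nme2, neighbouring and similar kinase genes, rose by 0.50 and 0.77. They share 12.5% and 48.9% of their exon length with the readthrough gene Gm20390. Removing the trend on length and GC ended the calls of Orc2 (-0.60), Rnaseh2c (0.39), Dnmt1 (-0.66), Chaf1a (-0.79), Dtymk (0.34) and Nme2 (0.18), with adjusted p-values of 0.141, 0.234, 0.0954, 0.12, 0.173 and 0.344 in edgeR. Library totals ended those of Rnaseh2a (0.27; adjusted p = 0.323), Dtymk (0.33; adjusted p = 0.165) and Nme1 (0.08; adjusted p = 0.612).

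Of 24 regulators of S phase entry 1 rose and 3 fell (4.17% and 12.5%), beside 11.2% and 8.14% of all tested genes. Cdk4, the kinase of the D cyclins, averaged 718 ± 34.1 CPM in aged and 422 ± 35.2 CPM in young libraries (SD, n = 3 each). Ccnd2, a D cyclin, averaged 689 ± 88.7 CPM in aged and 1152 ± 107 CPM in young libraries. Ccnd3, another D cyclin, named after its values were seen, lay the other way and did not pass (log2 change 0.39; adjusted p = 0.0609, edgeR). It averaged 602 ± 47.0 CPM in aged and 461 ± 39.5 CPM in young libraries, without overlap. E2f8, a repressor of E2F targets, averaged 2.82 ± 0.793 CPM in aged and 16.0 ± 0.393 CPM in young libraries, a log2 change of -2.51 ± 0.52 (SE; adjusted p = 0.00647, edgeR). Rbl2, a pocket protein of resting cells, fell by 1.24. Once the trend on length and GC was removed, Ccnd2 was at 0.02, Rbl2 at -0.60 (adjusted p = 0.159, edgeR) and, of the mitosis genes below, Bub1b at -0.64 (adjusted p = 0.237). Of 18 mitosis genes 3 rose and 1 fell (16.7% and 5.56%, beside the same shares of all tested genes). Mki67, a marker of cycling cells, averaged 29.96 ± 6.74 CPM in aged and 40.2 ± 10.4 CPM in young libraries and did not pass (adjusted p = 0.38). The mitosis genes that rose were Birc5, Cdk1 and Ube2c (1.2, 1.09 and 0.96), and the one that fell was Bub1b (-1.21; adjusted p = 0.0364). Cad, E2f8, Cdk4, Cdk1, Birc5 and Ube2c passed under all 15 alternatives. Leaving out a single library ended other calls. Orc2 had an adjusted p of 0.084 or 0.0909 without aged library 1 or 2 and of 0.131 or 0.0858 without young library 1 or 3. Rnaseh2a had 0.0528, 0.0654 and 0.0563 without aged library 1, 2 and 3, and 0.0649 without young library 1. Chaf1a had 0.0736 and 0.0554 without aged library 2 and 3, and 0.0654 and 0.147 without young library 1 and 2. Nme1 passed neither without aged library 1 (0.0501) nor without young library 1 or 2 (0.104 or 0.0524). Rbl2 was at 0.0589 without young library 1. Bub1b was at 0.106 and 0.105 without aged library 2 and 3, and at 0.105 and 0.187 without young library 1 and 2. Chaf1a, Orc2, Rnaseh2c and Ube2c share 52.5%, 29.8%, 24.8% and 22.8% of their exon length with a gene on the opposite strand. For Cdk4, Rbl2 and E2f8 this share is 19.7%, 11.8% and 11.2%.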

How the data were processed

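Total RNA was sequenced in 3 aged and 3 young libraries, grouped by their titles. The authors deposited raw counts per gene symbol, whole numbers without normalization. The submitters' processing notes name STAR 2.5.3a, Cufflinks 2.0, DESeq2 1.1 and mm10. The counting tool, the annotation and whether strand was used: not given in the sources used here. Counts were analysed with edgeR 4.0.16 in R 4.3.3 (filterByExpr with a minimum count of 10, TMM, glmQLFit and glmQLFTest, Benjamini-Hochberg over all 11805 tested genes), with factors of 0.866 ± 0.0232 in aged and 1.16 ± 0.0296 in young libraries (SD, n = 3 each). Standard errors are the log2 change divided by the root of F. Coordinates and principal transcript lengths are from GENCODE vM21 (GRCm38), promoters from RefSeq GRCm38.p6. Near-identical copies are pseudogenes aligned over at least 75 bases at 95% identity (BLAST). Members, lists, tests and alternatives were chosen with earlier results of these data known. Values in every library are given for members past an adjusted p of 0.05 and, in roles with fewer than 2 of these, for the 2 smallest p-values. Up to 4 called genes of each other list are named by smallest p. Members named beyond this were chosen after their values were seen. The alternatives were DESeq2 1.42.0, limma-voom (limma 3.58.1), 2 other scalings, 2 other filters, robust dispersion, a length and GC correction, the replicate block and leaving out each library.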

Additional observations from a re-analysis of the deposited data

How the results depend on the processing

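With library totals as the sole scaling 1 member was higher and 11 were lower, their median log2 change was -0.57 and their summed level -0.37 (log2, aged over young, against 0.05 as reported), beside 718 higher and 2380 lower of all genes. After the length and GC correction 5 members were higher and 2 lower, beside 1232 higher and 632 lower of all genes. The member median was 0.056, and Ccnd2 turned to 0.015. Leaving out each library in turn gave 2 to 4 members higher, 1 to 6 lower, medians of -0.18 to 0.011, summed levels of -0.03 to 0.11, and 915 to 1344 higher and 399 to 849 lower of all genes. The cause was not tested. DESeq2, limma-voom, upper quartile scaling, other filters and robust dispersion kept the counts of members within 1.5 times, and the member median stayed within -0.12 and 0.07 of that of all genes under all 15 alternatives. With the replicate block 3 members were higher and 2 lower, as Mcm3, Mcm6 and Pola2 lost their calls, beside 1208 higher and 800 lower of all genes. Correlations of the deviations of same-numbered libraries were 0.0196, 0.00883 and 0.0414, and those of other pairs across age ran from -0.0273 to 0.0125. Taken from means of 3 libraries, they cannot decide whether same-numbered libraries share a batch, and the labels name none. With 3 libraries in a group, a change that did not pass is not shown to be absent, least of all in genes near 10 CPM such as Pole, Mcm10 and Gins3.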
